A study of Mus musculus and Mus musculus
Rattus norvegicus with 30 samples.

Results

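The libraries described here ask what 1 amino acid of the DNA-binding domain of Cdx2, alanine or serine, changed in the transcriptome of mouse embryonic stem cells (mESCs). They were chosen as matched pairs of constructs that differ at this residue and at no other: R12 against R1, R23 against R3 and R123 against R13. This gave 12 of the 30 samples of the series, 6 libraries with serine and 6 with alanine.

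The study compared Cdx2 of mouse and rat, whose DNA-binding domains differ by 3 changes, and built mutants of rat Cdx2 (rCdx2) that carry the mouse state of 1, 2 or all 3 of them. Change 1 replaces tyrosine by phenylalanine, change 2 replaces alanine by serine and change 3 takes away an asparagine, and the digits in the name of a construct list its changes. Each construct was a Flag-tagged gene under a doxycycline-inducible Tet-On promoter, delivered by lentivirus to mESCs kept in 2i/LIF medium (the time and dose of doxycycline for the mutants are not given in the sources used here), and polyadenylated RNA was sequenced by strand. Each mutant had 2 libraries from stably transduced cells. Nothing in the sources used here says whether both came from 1 line, or from separate cultures. The residue and the line therefore cannot be told apart within a pair. All 12 libraries expressed a mutant rCdx2, and no library without a construct, with unmutated rCdx2 or with change 2 alone enters the comparison. The p values measure the spread between these libraries, which may be technical.

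Cdx2 is a homeobox transcription factor. It specifies the trophectoderm, the first extra-embryonic lineage, and later the posterior body axis and the intestinal epithelium, and Hox genes are among its best known targets. When it is induced in mESCs, genes of the pluripotent state give way to genes of the trophoblast. Naive mESCs in 2i/LIF have little DNA methylation. The de novo methyltransferase Dnmt3b and its cofactor Dnmt3l rise when cells leave the naive state, and germ cell genes, whose promoters are rich in CpG, are held silent in somatic cells by DNA methylation and by a variant Polycomb complex with subunits that bind E-box and E2F motifs.

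The residue of change 2 is shown by the coding sequence of the mouse gene, because mouse Cdx2 holds the serine that the mutants were given. In GRCm38, the assembly of mm10, codon 216 of Cdx2 is a serine codon in coding exon 2 of 3, and codon 206 upstream of it encodes phenylalanine, the mouse state of change 1. The paralogue Cdx4 also has a serine at the equivalent codon, number 202, in its coding exon 2 of 3. The stretches below run 5 codons to either side of the serine codon, which is in capitals, from RefSeq coding positions chr5:147303202-147303234 on the minus strand for Cdx2 and chrX:103328101-103328133 on the plus strand for Cdx4.
Cdx2: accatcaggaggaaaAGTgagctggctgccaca
Cdx4: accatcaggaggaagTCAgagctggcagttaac

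The 12 libraries held 13592467 to 20638317 counts in 19919 genes, and 3.86 to 5.58% of the counts fell on mitochondrial genes. In a principal component analysis the first component took 43.6% of the variance. R1 lay at -35.6 and -37.1 on it and R12 at -27.8 and -28, while R3 lay at 2.23 and 2.1. R23, R13 and R123 shared the other end, between 19.3 and 22.5. The constructs with serine thus lay further along this axis in the R12 and R23 pairs, whereas R13 and R123 overlapped. The second component, with 12.7% of the variance, separated replicate 1 from replicate 2. These had been counted in separate runs, and what else differed between them is not stated in the sources used here.

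Cdx2 itself is given first, since it is the induced gene. Reads of the rat transgene and of the mouse gene (chr5:147300805-147307270) are both counted on mouse Cdx2, so the level sums them. On the CPM scale (counts divided by library size, with TMM factors), Cdx2 was at 144 in replicate 1 and 68.5 in replicate 2 of R1, and at 144 and 60.1 in R12. R3 had 93.7 and 44.1 CPM, and R23 65.4 and 38.5. R13 had 76.6 and 37.1 CPM, and R123 61.8 and 38.8. Replicate 2 was lower than replicate 1 in every construct, the R1 pair was highest, and the serine and alanine libraries overlapped. With the pair and the replicate number as blocks, Cdx2 was lower with serine by a log2 fold change of -0.19 ± 0.06 (SE, 6 libraries against 6), which did not pass (adjusted p = 0.0985 by edgeR's quasi-likelihood test). Within R23 against R3 it did fall, by 0.37 on the log2 scale (adjusted p = 0.0232, edgeR). The difference was -0.08 in R12 against R1 and -0.14 in R123 against R13. The level of Cdx2 therefore moved with the largest of the pair differences described below, and its part in them was not tested.

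**Figure D1:**
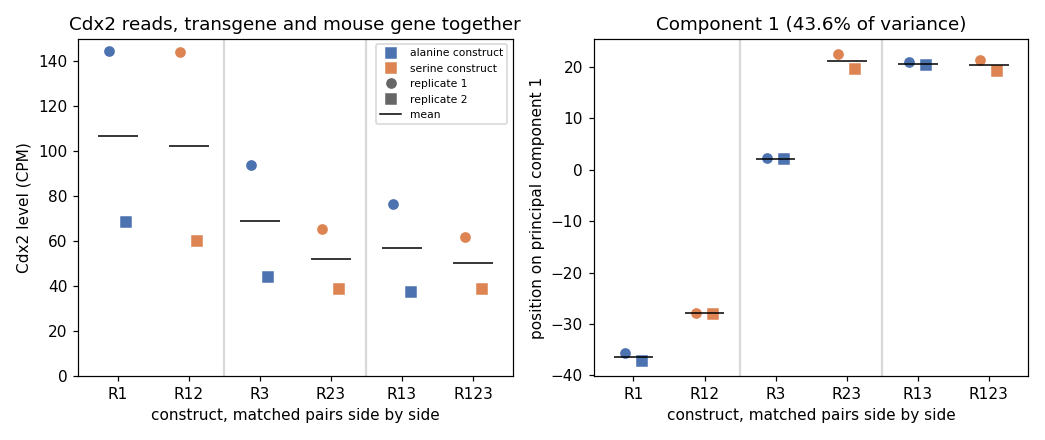
Cdx2 level in CPM (left) and position on principal component 1 (right) for each library of the 6 constructs, with the matched pairs side by side. Circles are replicate 1, squares replicate 2 and bars their mean. Cdx2 ranged from 37.1 to 144 CPM, and R23 lay with R13 and R123 on component 1 while its partner R3 lay apart from them at 2.23 and 2.1.

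Across the 3 pairs, few genes differed with the residue, and by little. Of 14280 genes tested, 87 passed an adjusted p of 0.05 (edgeR quasi-likelihood test, Benjamini-Hochberg), 0.609% of all, and 2195 had an unadjusted p under 0.05. With serine, 51 genes were higher (0.357%) and 36 lower (0.252%). The median size of these 87 differences was 0.223 on the log2 scale, and 3 genes were past 1.5-fold. All 87 had the same direction in the 3 pairs, and 70 had it in each of the 6 matched differences between libraries. Among all genes tested, 6.84% had 1 direction in the 6 differences. The 87 were called from these same libraries, so their agreement in direction is no separate support. For 13890 genes (97.3%) the 95% interval of the fold change lay within 2-fold in either direction, and for 12180 (85.3%) within 1.5-fold. These intervals rest on the replicate block. The contrasts of changes 1 and 3 in the same fit are set beside these counts, though they too compare different lines. The 4 libraries of the R123 and R13 pair against the 4 of the R23 and R3 pair, which differ by change 1, gave 6 genes (0.042%). This contrast averages R123 against R23, which lay together on component 1, and R13 against R3, which lay apart. Its count is therefore no plain measure of change 1. The R123 and R13 libraries against those of the R12 and R1 pair, which differ by change 3, gave 7163 genes (50.2%). In that contrast Cdx2 itself had a log2 fold change of -0.93 (adjusted p = 1.53e-11, edgeR), so its level differed along with change 3.

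The 87 calls rested on the design and on 1 pair. Of the 87 genes, 68 also passed in R23 against R3, and 67 had their largest difference in that pair. In the change 3 contrast, which shares libraries with this one, 85 of the 87 passed, where 50.2% of all genes did. A difference with the residue was therefore not separated from the differences between the lines. Without the replicate number as a block none passed (edgeR, 1188 genes at an unadjusted p under 0.05). With replicate 1 left out 1 gene passed, with replicate 2 left out none, and with the block set within each pair 19. When R23 and R3 were left out, 3 genes passed: Dazl, 4930447C04Rik and Dnmt3l. When R12 and R1 were left out 75 passed, and without R123 and R13, 172. Single libraries moved the count from 10 (without R3 replicate 1 or R23 replicate 1) to 366 (without R12 replicate 1). It was 13 without R12 replicate 2, 14 without R3 replicate 2, 30 without R23 replicate 2, 43 without R13 replicate 1, 57 without R13 replicate 2 and 186 without R123 replicate 2.

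**Figure D2:**
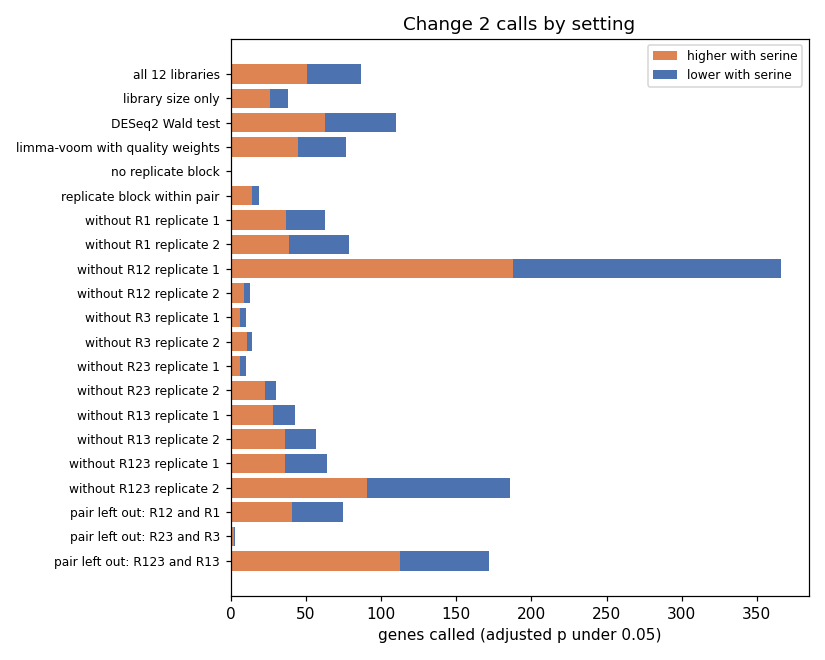
Number of genes called for serine against alanine (adjusted p under 0.05) with all 12 libraries, under other tests and blocks, and with a library or a pair left out. Bars are split into genes higher (orange) and lower (blue) with serine. The count was 87 with all libraries, 0 with no replicate block, 3 without the R23 and R3 pair and 366 without R12 replicate 1.

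Germ line genes stood among the genes that rose with serine at the lowest adjusted p values. Dazl (chr17:50279395-50293636), an RNA-binding protein needed for germ cell development, had 24.6 and 16.7 CPM in the libraries of R1 and 30.5 and 26.6 in R12. It had 33.5 and 31.7 CPM in R3 and 56.3 and 40.5 in R23, and 43.4 and 37.7 in R13 against 53.9 and 45.3 in R123. Both serine libraries were above both alanine libraries in every pair, although the pairs themselves differed in level. Dazl rose 1.35-fold (log2 fold change 0.44 ± 0.06, SE, adjusted p = 0.000349 by edgeR) and was higher in 6 of 6 matched differences. It stood at 0.49 in R12 against R1, 0.55 in R23 against R3 and 0.29 in R123 against R13, of which R23 against R3 passed on its own. In the change 3 contrast, which shares libraries with this one, Dazl had a log2 fold change of 0.89.

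4930447C04Rik (chr12:72881109-72940774), also known as Six6os1, encodes a protein of the synaptonemal complex that holds homologous chromosomes together in meiosis. It had 15.9 and 10.5 CPM in R1 against 20.6 and 17 in R12, 22.5 and 18.5 in R3 against 34.1 and 22 in R23, and 27.7 and 22.1 in R13 against 36.4 and 26.3 in R123. Across replicate numbers the libraries overlapped in the R23 and R123 pairs, where replicate 1 of R3 and of R13 exceeded replicate 2 of the serine construct. The gene rose 1.34-fold (log2 fold change 0.42 ± 0.06, SE, adjusted p = 0.000733, edgeR). Hormad1 (chr3:95559677-95587671), which monitors meiotic chromosome axes, had 46.2 and 34.3 CPM in R1 against 55.9 and 47.4 in R12, 55.7 and 51 in R3 against 87.2 and 58.1 in R23, and 70.6 and 50.8 in R13 against 80.2 and 58.7 in R123. It rose 1.26-fold (log2 fold change 0.33 ± 0.05, SE, adjusted p = 0.00125, edgeR). For Hormad1 the libraries overlapped in the R123 pair. Both genes were higher with serine in 6 of 6 matched differences.

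On a list of 13 germ cell genes, 12 were tested. Dazl and Hormad1 rose and none fell, where 0.357% of all genes rose. All 12 had a positive log2 fold change, with a median of 0.278, and over all genes tested the median was 0.00272. In the single pairs the median of the list was 0.0774 for R12 against R1, 0.379 for R23 against R3 and 0.292 for R123 against R13. Ddx4, the RNA helicase Vasa, had 0.29 ± 0.08 (SE, adjusted p = 0.0878, edgeR), Sycp1, of the synaptonemal complex, 0.38 ± 0.12 and Sycp3, of the same structure, 0.20 ± 0.11. These members did not pass.

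Further genes with roles in germ cells stood among the 51 that rose, and they are named here after their values were seen. Rnf17, a Tudor protein of the germ line, had a log2 fold change of 0.18 ± 0.04 (SE). Tex14, needed for the intercellular bridges of germ cells, had 0.19 ± 0.04, and Sohlh2, a transcription factor of early germ cells, 0.22 ± 0.05. Mybl1, a regulator of male meiosis, had 0.23 ± 0.05. Sgol2a, which protects centromeric cohesion in meiosis, had 0.17 ± 0.04. Their adjusted p values lay between 0.0267 and 0.0457 (edgeR).

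The promoters of the 3 leading germ cell genes are shown so that their CpG and the E-box and E2F motifs of the background above can be read beside the values. The sequences are the 250 bases before the RefSeq start on GRCm38.p6, with 20 CpG for Dazl (chr17:50293621-50293870, minus strand), 19 for Hormad1 (chr3:95559427-95559676, plus strand) and 16 for 4930447C04Rik (chr12:72917766-72918015, minus strand), where the median promoter of the tested genes has 16. Capitals mark the E-box CACGTG and the E2F motif TCCCGC, each searched on both strands.
Dazl: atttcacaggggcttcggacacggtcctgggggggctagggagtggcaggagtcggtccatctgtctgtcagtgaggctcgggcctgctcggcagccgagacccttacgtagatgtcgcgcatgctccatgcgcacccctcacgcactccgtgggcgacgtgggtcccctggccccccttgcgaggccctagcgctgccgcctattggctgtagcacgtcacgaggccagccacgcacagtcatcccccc
Hormad1: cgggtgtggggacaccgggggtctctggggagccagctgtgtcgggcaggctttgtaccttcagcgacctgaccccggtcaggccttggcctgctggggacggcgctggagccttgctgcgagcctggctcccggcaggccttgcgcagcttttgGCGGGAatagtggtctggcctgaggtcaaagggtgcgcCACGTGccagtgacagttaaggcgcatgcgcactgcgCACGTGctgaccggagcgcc
4930447C04Rik: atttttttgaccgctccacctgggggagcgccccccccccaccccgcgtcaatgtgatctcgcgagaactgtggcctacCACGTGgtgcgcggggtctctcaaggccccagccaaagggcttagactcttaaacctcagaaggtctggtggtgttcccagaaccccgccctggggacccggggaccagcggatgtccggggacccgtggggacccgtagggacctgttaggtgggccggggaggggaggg
Hormad1 held both motifs, 4930447C04Rik the E-box and Dazl neither. The 4930447C04Rik stretch lies inside the GENCODE span of the gene (chr12:72881109-72940774, minus strand). It therefore precedes a RefSeq start that differs from the GENCODE start, and which start these cells use was not tested. The E-box was found in 8 of the 12 promoters available for the germ cell list (66.7%), which were not limited to tested genes. It was in 8.49% of the promoters of all tested genes with a RefSeq entry and in 6.05% of 27025 promoters. Among the genes that rose with serine, 4 of 40 promoters held it (10%), and among those that fell, 1 of 30 (3.33%). The E2F motif was in 33.3% of the germ cell promoters and in 30.7% of those of all tested genes. A match describes these letters and is no measure of binding.

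Dnmt3l and Dnmt3b, which act in de novo DNA methylation, were lower with serine. Dnmt3l (chr10:78041947-78063622), the cofactor without catalytic activity, had 37.9 and 39 CPM in R1 against 24.1 and 28.7 in R12. In R3 it had 10.5 and 10.3 CPM against 7.56 and 9.12 in R23, and in R13 7.24 and 8.81 against 5.83 and 7.41 in R123. The R1 and R12 lines had the highest levels, and these libraries did not overlap with one another. Dnmt3l was lower in 6 of 6 matched differences, and fell by 0.42 ± 0.07 on the log2 scale (SE, adjusted p = 0.0035 by edgeR), and it was the only gene that passed in R12 against R1 (0.007% of all genes tested), where it fell by 0.54. That call was lost when genes averaging under 50 counts were dropped and when the replicate block was. Dnmt3b (chr2:153649450-153687730), the methyltransferase, had 219 and 237 CPM in R1 against 183 and 198 in R12, 131 and 134 in R3 against 93 and 104 in R23, and 106 and 103 in R13 against 100 and 98.8 in R123. It fell by 0.25 ± 0.04 on the log2 scale (SE, adjusted p = 0.0035, edgeR). It fell within R23 against R3, by 0.42, and had -0.26 in R12 against R1 and -0.07 in R123 against R13, which did not pass. In the change 3 contrast the values were -2.14 for Dnmt3l and -1.03 for Dnmt3b.

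Other genes of DNA methylation, again chosen after their values were seen, did not pass. Dnmt3a, the second de novo methyltransferase, had a log2 fold change of 0.04 ± 0.05 (SE). Dnmt1 and Uhrf1, which copy methylation to new DNA strands, had -0.01 ± 0.03 and -0.02 ± 0.03. The dioxygenases that oxidise methylcytosine had 0.03 ± 0.03 for Tet1, 0.02 ± 0.03 for Tet2 and 0.06 ± 0.06 for Tet3.

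**Figure D3:**
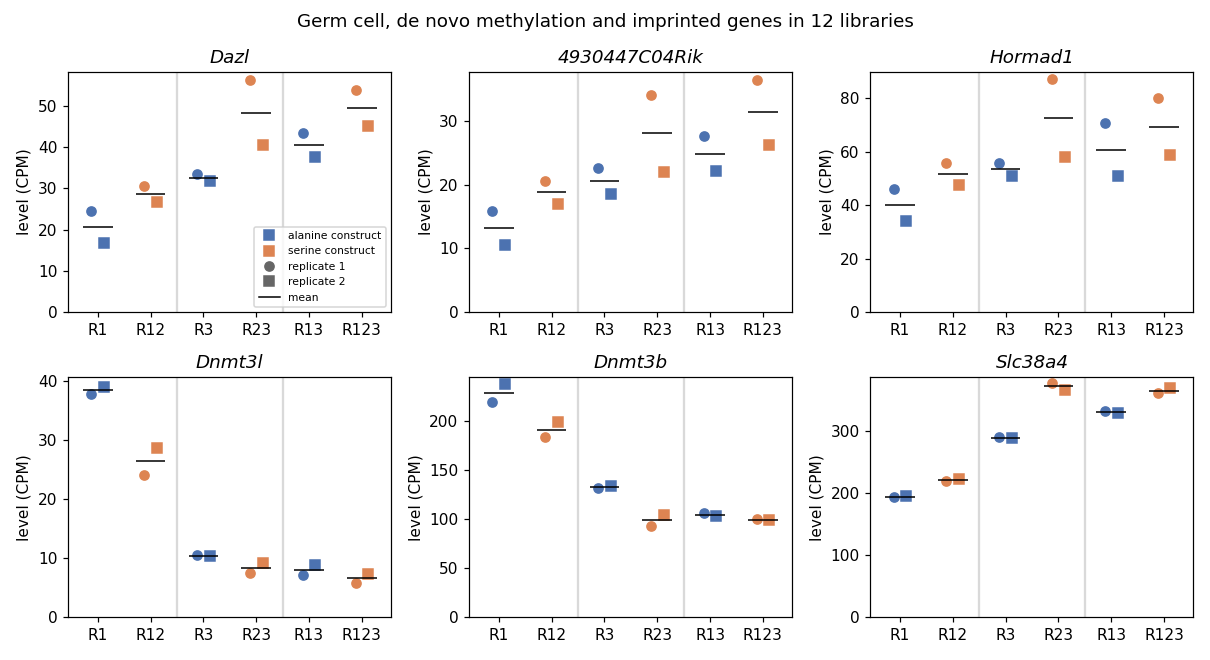
Level in CPM, from 0, of 3 germ cell genes, 2 genes of de novo methylation and the imprinted gene Slc38a4 in the 12 libraries, with matched constructs side by side. Circles are replicate 1, squares replicate 2 and bars their mean. The serine construct had the higher mean for Dazl, 4930447C04Rik, Hormad1 and Slc38a4 and the lower mean for Dnmt3l and Dnmt3b in each pair, with the smallest step for Dnmt3b in R123 against R13 (-0.07 on the log2 scale).

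The largest shared rise of a called gene was that of Nap1l3, of the nucleosome assembly family, with a log2 fold change of 0.74 at an average of fewer than 50 counts. Calr4, a calreticulin family member, led the genes above that average, with 2.16 to 8.84 CPM over the libraries and a 1.5-fold rise (log2 fold change 0.59 ± 0.11, SE). Slc43a3, a purine transporter, rose 1.39-fold, at 4.91 and 3.98 CPM in R1 against 6.1 and 5.27 in R12, 9.21 and 8.59 in R3 against 12.9 and 12.4 in R23, and 11.3 and 9.82 in R13 against 16.3 and 13.6 in R123. It did so by similar amounts in the 3 pairs (0.36, 0.52 and 0.50). A2m, an extracellular protease inhibitor, had 0.41 ± 0.08 and Tgm2, a transglutaminase, 0.32 ± 0.08, both with their largest value in R23 against R3 (0.73 and 0.64). Ttc25 had 0.37, Hdgfl3 0.34, Snhg14, a long RNA of the imprinted Snrpn region, 0.33, Tmem117 0.31 and Apobec2, of the cytidine deaminase family, 0.30. Slc38a4, an imprinted amino acid transporter, was the 1 member that rose among 20 tested imprinted genes (0.357% of all genes rose), 14 of which had a negative value (median -0.0466). It rose by 0.23 ± 0.03 (SE, adjusted p = 0.000733, edgeR).

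Among the genes that fell, Lrrn2, a membrane protein with leucine-rich repeats, had the lowest log2 fold change with at least 50 counts on average (-0.58 ± 0.13, SE). It had 9.04 and 9.39 CPM in R1 and 6.99 and 7.3 in R12, and 3.01 and 3.8 in R3 against 1.41 and 1.64 in R23. Slc39a14, a transporter of zinc and iron, had -0.53 ± 0.12, with -0.62 and -0.73 in the R12 and R23 pairs and -0.05 in the R123 pair. Notum, a secreted inhibitor and target of Wnt signalling, had -0.40 ± 0.10. It was the 1 member of 9 tested Wnt targets that fell, where 0.252% of all genes did. Of the 9, 7 had a negative value (median -0.148). Tubb3, a neuronal tubulin, had -0.30, Mylip, a ubiquitin ligase for lipoprotein receptors, -0.28, Slc4a5, a bicarbonate transporter, -0.27 and Sfn, the 14-3-3 sigma protein of epithelia, -0.25. Lin28a, which blocks let-7 maturation, had -0.24 ± 0.05 and was named after its value was seen. The predicted gene Gm10800 had the largest value of the 87 (-2.94), and 1 library made it: R3 replicate 2 had 25.9 CPM and the other 11 libraries 0.11 to 1.64. Without R3 replicate 2 it was not among the 14 genes called.

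**Figure D4:**
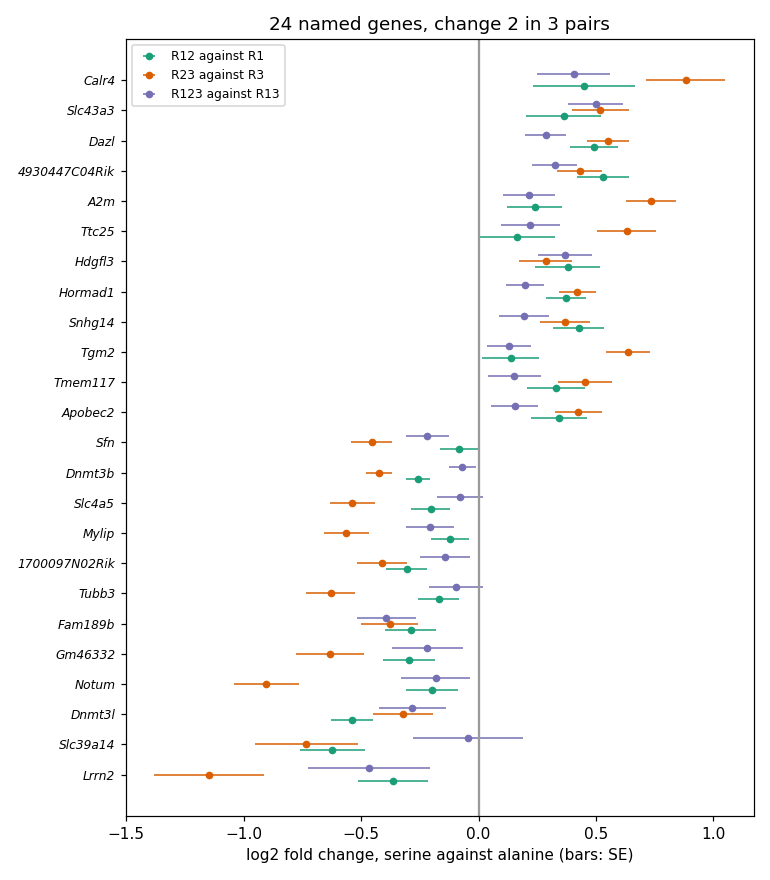
Log2 fold change of serine against alanine in each matched pair for the 24 genes with the largest shared differences, with bars of 1 SE. Green is R12 against R1, orange R23 against R3 and purple R123 against R13. All 24 genes lie on 1 side of 0 in the 3 pairs, as their choice required, and for genes such as Notum (-0.90) and A2m (0.73) the R23 pair lies furthest from 0.

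Over the 3 pairs, the lists of trophoblast, Hox and naive pluripotency genes, among which Cdx2 is known to act, held no call. Of all genes 0.609% were called, and nothing is read from the absence of a call on these lists. None of 18 tested trophoblast stem cell genes passed, with a median log2 fold change of -0.0246. Gata2 had -0.02 ± 0.06 (SE), Krt8, a keratin of simple epithelia, -0.03 ± 0.05, and Eomes, a T-box factor of the trophoblast, 0.06 ± 0.11. In the Hoxa cluster 8 genes were tested and none passed, with log2 fold changes from -0.427 to 0.889. Hoxa7 had 28.2 and 26.8 CPM in R1 against 21 and 20.6 in R12, but 9.36 and 8.91 in R13 against 9.4 and 12.7 in R123, and its overall log2 fold change was -0.17 with a 95% interval of -0.35 to 0.01. Hoxa9 had -0.02, from -0.18 to 0.14. None of 18 naive pluripotency genes passed over the 3 pairs either, with a median of 0.019, but 2 rose and 2 fell in R23 against R3. The cells expressed the pluripotency factor Pou5f1 at 638 to 939 CPM in all 12 libraries. Pou5f1 had -0.05, Nanog 0.02 and Esrrb -0.06, and no 95% interval of these 18 genes reached past 0.389 in either direction. In all, 22 of 26 gene lists had no member that passed, and the 9 of them with at least 10 tested members had medians between -0.0334 and 0.0543. The other 4 were the germ cell, imprinted and Wnt lists and that of the formative epiblast, whose single member that fell was Dnmt3b. Smaller lists without a call lay further out. The 2-cell-like state, a rare state of mESCs marked by the Zscan4 genes, had a median of 0.183 with 7 of 7 tested genes positive, and medians of 0.032, 0.289 and 0.519 in the R12, R23 and R123 pairs. Genes of the primitive streak and posterior mesoderm had -0.331 with 4 of 4 negative, and medians of -0.449, -0.384 and 0.257 in the same order. As markers of other cells, 3 fibroblast genes had a median of 0.114, 12 of the primitive endoderm 0.0543 and 5 of the intestinal epithelium -0.0316. The part of such cells in the results was not tested.

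The pairs differed in how much they showed. R23 against R3 gave 581 genes (4.07%), 309 higher (2.16%) and 272 lower (1.9%). R12 against R1 gave 1 gene and R123 against R13 none (0%). The effect of serine differed between the pairs for 53 genes (0.371%, joint test of the interaction terms, edgeR). The count for R23 against R3 fell to 12 with no replicate block and was 280 with DESeq2. Across 11134 genes with at least 50 counts on average, the log2 fold changes of R23 against R3 had a Pearson correlation of 0.248 with those of R12 against R1 and of 0.183 with those of R123 against R13, and the latter pairs had 0.00799 with each other. Within R23 against R3, the matched differences of replicates 1 and 2 had a correlation of 0.353, against 0.128 in the R12 pair and 0.163 in the R123 pair. These are correlations across genes, which are not independent, and libraries of 1 replicate number share a counting run.

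The named genes with the largest differences in R23 against R3 were genes that R3 expressed between the level of the R1 lines and that of the other constructs. Trh, the precursor of thyrotropin-releasing hormone, had 32.5 and 36.7 CPM in R1 and 29 and 32.4 in R12. It had 11.9 and 12.1 CPM in R3, but 4.23 and 4.15 in R23, beside 4.03 and 6.25 in R13 and 4.87 and 4.94 in R123. R23 was thus level with R13 and R123, and its log2 fold change against R3 was -1.54 (adjusted p = 1.43e-06, edgeR). Id3, an inhibitor of helix-loop-helix factors, followed the same order, with 4.8 and 5.55 CPM in R3 against 2.08 and 1.78 in R23 (-1.44). Myc had -1.12 and Lrrn2 -1.15. Among the genes that rose in R23, Cntd1, which acts in meiotic crossover formation, had 1.02, B4galnt2, a glycosyltransferase, 0.95, Trim52 0.89 and Calr4 0.88.

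Of 22 tested genes of glycolysis and the hypoxia response, 8 rose in R23 against R3 (2.16% of all genes did), none fell and the others did not pass. Other lists held calls in this pair at a similar share. Of 12 germ cell genes 4 rose, and of 11 formative and primed epiblast genes 4 fell (1.9% of all genes did). Of 20 imprinted genes 2 rose and 4 fell. Smaller shares were called of 18 naive pluripotency genes (2 rose, 2 fell) and of 22 cholesterol genes (4 rose). Of 10 p53 targets 2 rose, and of 12 primitive endoderm genes 2 rose. Of 9 Wnt targets 2 fell, and of 13 mitochondrially encoded genes 2 fell. Pgk1, a glycolytic kinase, had 270 and 282 CPM in R3 and 337 and 358 in R23, while R1 had 290 and 316 and R12 277 and 302. Ldha, lactate dehydrogenase, had 356 and 388 CPM in R3 and 424 and 475 in R23. Bnip3, a mitophagy receptor induced by hypoxia, had 21.1 and 22.3 against 35.1 and 36.3 CPM, a log2 fold change of 0.72, with -0.08 in R12 against R1 and 0.15 in R123 against R13. Vegfa had 0.38, Ddit4 0.48 and Pdk1 0.39. For 6 of the 22 genes the effect differed between pairs (edgeR interaction test): the adjusted p was 0.00839 for Pgk1, 0.00215 for Ldha and 0.0167 for Bnip3. Over the 3 pairs together no gene of this list passed, and its median was 0.0124. Txnip, a regulator of glucose uptake, rose in R23 from 187 and 192 to 275 and 284 CPM (log2 fold change 0.56) and had 0.12 and 0.06 in the R12 and R123 pairs.

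**Figure D5:**
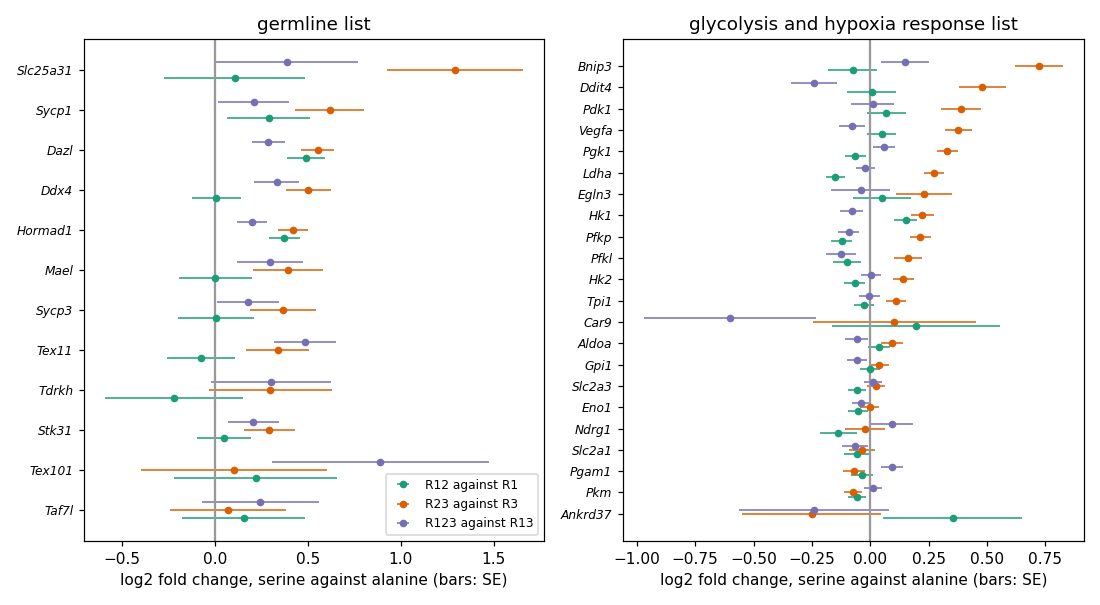
Log2 fold change of serine against alanine in each matched pair for the 12 tested germ cell genes (left) and the 22 tested genes of glycolysis and the hypoxia response (right), with bars of 1 SE. Colours mark the pairs. The germ cell list has medians of 0.0774, 0.379 and 0.292 in the R12, R23 and R123 pairs, and the upper glycolysis genes stand apart from 0 in the R23 pair, as Bnip3 does at 0.72.

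Binding sites of Cdx2 were compared by position, from the 91665 peaks that the study merged over its mESC ChIP-seq of mouse and rat Cdx2, not of these mutants. A peak lay within 60 kb centred on the gene start for 77.1% of the tested genes with a position. The share was 45 of 50 (90%) for genes higher with serine and 23 of 36 (63.9%) for genes lower with serine. In R23 against R3 it was 82.4% of the genes that rose and 73.2% of those that fell. Over 19 autosomes and X, the chromosome medians of the log2 fold changes lay between -0.0245 and 0.00885 for R12 against R1, -0.046 and 0.0456 for R23 against R3, and -0.0394 and 0.0632 for R123 against R13. The 12 mitochondrial genes had medians of -0.0273, -0.201 and 0.164 in the same order of pairs.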

How the data were processed

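The authors aligned stranded read pairs of polyadenylated RNA to mm10 with STAR 2.7.0d (submitters' notes) and counted them per gene with featureCounts, on an Ensembl annotation without pseudogenes. The deposited values are raw counts, not normalised. Replicate 1 and replicate 2 were counted in separate runs. The header of the replicate 2 table names featureCounts 1.6.0 and keeps only complete, non-chimeric pairs. The study's methods give gene-wise, reverse-stranded counting of pairs without naming that restriction, and the replicate 1 table has no such header. Levels of near-identical genes are uncertain, since they can share reads.

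The 2 tables were joined on 19919 shared gene symbols, and 0.00788 to 0.0101% of the replicate 2 counts lay in genes outside them. The 8 columns of the tables that belong to other samples were not used. Libraries without a replicate number in their label are called replicate 1. Counts were filtered with filterByExpr, scaled by TMM and tested with edgeR 4.0.16 (quasi-likelihood test, limma 3.58.1, R 4.3.3), with pair and replicate number as blocks and serine as the tested term, or with 1 serine term per pair. Standard errors are the log2 fold change divided by the square root of F. P values were adjusted over 14280 genes (Benjamini-Hochberg), and genes under 0.05 were called, at any fold. DESeq2 1.42.0 and limma-voom were alternatives. The scripts were tested on simulated data.

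Deviations of libraries with the same replicate number from their construct means correlated across genes in all 15 combinations of constructs (0.152 to 0.294). The replicate number had been set as a block when the comparison was chosen, not because of these correlations. Matched constructs had 0.152 (R1 and R12), 0.21 (R3 and R23) and 0.201 (R13 and R123). The highest value was that of R23 and R123, which are not matched. A shift between the replicate numbers was thus not told apart from a pairing of the libraries. What such a shift came from was not tested. Replicates of a construct varied with 2.58 to 4.91 times the variance of read sampling (median gene), the shift between replicate numbers included. The replicates of no construct were therefore alike within sampling noise. The libraries held 13592467 to 20638317 counts.

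The named genes are Cdx2, members of the gene lists, the 12 highest and 12 lowest shared changes of called genes (average of 50 counts or more, 1 direction in the 3 pairs), and up to 4 genes in each direction for each pair and for the difference between pairs. The comparison, the lists and the tests were chosen with earlier results of these data known. Gene positions are from GENCODE M21 and sequences from RefSeq, both on GRCm38, and 14128 of the 14280 genes had a position. Peak positions are the deposited intervals of the study's merged ChIP-seq peaks, and the counts in these peaks were not used. Figures and positions were made with Python 3.11.15, pandas 2.3.3, matplotlib 3.10.9 and samtools 1.23.1.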

Additional observations from a re-analysis of the deposited data

Results flagged for a closer look

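For 6 of the named genes the effect of serine differed between the matched pairs in the joint edgeR interaction test. The adjusted p was 0.000838 for Txnip and 0.000838 for Trh, which changed in R23 against R3. It was 0.00167 for Fxyd6, a regulator of the sodium pump, with log2 fold changes of 0.32 and 0.37 in the R12 and R23 pairs and -0.18 in the R123 pair. The imprinted long RNA H19, with an adjusted p of 0.00215, had -0.16, -0.23 and 0.14 in the same order of pairs. For Id3 the adjusted p was 0.0226, with -0.07, -1.44 and 0.08, and for B4galnt2 0.0415, with 0.17, 0.95 and -0.17. A search for single libraries far from the others of their side (Dixon's test on log2 CPM, 6 libraries) marked 0 of 68 groups of the named genes.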

How the results depend on the processing

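The count of 87 genes for the residue (51 higher, 36 lower) became 38 (26, 12) with library size alone, 209 (111, 98) over all genes with a count, and 67 (44, 23) with a mean of at least 50 counts. Without the replicate block it was 0 (0, 0), with the block within pairs 19 (14, 5), without R23 and R3 3 (2, 1), and without R123 and R13 172 (113, 59). With 1 library or 1 replicate number left out it ranged from 0 to 366, from 0 to 188 higher and from 0 to 178 lower. DESeq2 gave 110 genes, of which 74 were among the 87. R12 against R1 gave 23 genes over all genes with a count, 0 with a mean of at least 50 counts, 0 without the block and 60 from its own 4 libraries. R23 against R3 gave 12 without the block, 280 with DESeq2 and 325 from its own 4 libraries, and R123 against R13 gave 56 over all genes with a count and 7 from its own 4. The difference between pairs gave 165 genes over all genes with a count and 0 without the block. The contrast of change 1 gave 0 without the block and 0 to 1 with a replicate number left out, and that of change 3 3699 to 4940. Cdx2 had -0.19 over all genes with a count (adjusted p = 0.0287 by edgeR, range over its alternatives 0.00984 to 0.837) -0.27 to -0.12 with a library or a replicate number left out, and -0.11 without R23 and R3. It passed without R12 replicate 1 and without R123 replicate 2. B4galnt2 turned to -0.0833 without R23 and R3, the only reversal in 858 values of named genes. Of these genes, 24 were chosen for 1 direction in the 3 pairs, and the alternatives share libraries. Their direction is therefore no separate support. In 282 of the 858 values a gene called with all libraries was no longer called. Without R23 and R3 this held for 21 of the 24. The calls depended on the replicate block: without it Dazl kept a log2 fold change of 0.44 with an adjusted p of 0.47 (edgeR, range over its 26 alternatives 1.65e-07 to 0.47, called in 23). Per-pair effects without a replicate number were not run, since they leave no residual degrees of freedom. The cause was not tested. With 2 libraries per construct the precision of single pairs is limited.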
